A study of Mus musculus with 9 samples.

Results

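Pseudogenes are copies of genes that no longer serve the role of the gene they came from. A processed pseudogene arose when a spliced messenger RNA was copied back into DNA and inserted elsewhere, so it lacks introns and, when young, is nearly identical to the coding sequence of its parent. Unprocessed pseudogenes arose by duplication of a stretch of genome and keep the exon structure. Ribosomal protein genes, which are strongly transcribed in every tissue, have left many processed copies, and a read from such a copy can be hard to assign to a single place in the genome.

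The pseudogenes described here are the 53 entries of the liver expression table whose symbol ends in -ps, or in -ps and digits, and whose mean over the 9 livers was at least 10 normalised reads. They were chosen from 302 entries named in that way and 22701 entries in all, and they are called members below. The mean that chose them is a measured value, so their levels are given as a description. RNA was taken from livers of mice aged 5 weeks, and the labels give the strain background of every animal as C57BL/6 and 129svPas together. There were 3 wild-type livers (WT), 2 livers of HP1a-/- mice (HP1a_KO), 1 liver with HP1a-/- and HP1bliver-/- (HP1ab_KO) and 3 livers with HP1a-/- and HP1gliver-/- (HP1ag_KO). The loss of HP1α, a heterochromatin protein, is thus shared by the 3 mutant groups, while HP1β or HP1γ was deleted in the liver only, by a driver not given in the sources used here.

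Libraries held 16266423 to 36161177 reads in genes, the lowest being HP1a_KO replicate 1. The value of 1 read was 1.83 there and 0.799 to 1.12 elsewhere. Cbx5, which encodes HP1α, had 997 to 1542 normalised reads in WT and 501 to 813 in the 6 mutant livers. Cbx1 (HP1β) had 217 in HP1ab_KO against 803 to 1082 in WT, and Cbx3 (HP1γ) had 326 to 380 in HP1ag_KO against 536 to 641 in WT. Alb, the albumin gene of hepatocytes, lay between 1726290 and 2550225 in every liver. Animals are named by a number in the labels, with no word on litters, so p-values measure the spread between these samples. The share of each strain's alleles in a given animal is not stated either.

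The name is wider than the annotation. Of the 53 members, 51 had an identifier in the GENCODE M21 annotation of GRCm38, and of these 28 were annotated as processed pseudogenes, each in 1 exon block, and 20 as unprocessed ones. The others were a unitary pseudogene (Slc2a4rg-ps), a polymorphic pseudogene (Slc22a13b-ps) and a protein-coding gene (Rpl9-ps6), and Rps10-ps2 and Eif4a-ps4 had no identifier there. Ribosomal protein copies made up 21 members, among them 19 of the 28 processed ones. A further 6 were major urinary protein (Mup) pseudogenes on chromosome 4, and 10 were copies of genes for enzymes and metabolism. The threshold of the rule separated Rpsa-ps9 (mean 10.4 normalised reads), Slc22a13b-ps (10.6) and Vmn1r-ps128 (11.1) from Vdac3-ps1 (9.50), Mup-ps22 (9.40) and Hmgb1-ps3 (8.14) below it. Together the members took 0.0180 to 0.0645% of the reads of a liver, and 0.0156 to 0.0323% without Serpina4-ps1.

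The sequences that carry the main pattern are those of 5 ribosomal protein copies whose levels fell into sharply separated steps between livers. Each is shown with the same stretch of its parent's coding sequence, 5′ to 3′, from the GENCODE transcripts of GRCm38. Capitals mark the bases that differ between the copy and the parent.

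Rps2-ps13, chrX:52898614-52898703, plus strand: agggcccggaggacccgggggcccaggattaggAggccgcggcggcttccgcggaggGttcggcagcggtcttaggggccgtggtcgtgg
Rps2, bases 27 to 116 of the coding sequence: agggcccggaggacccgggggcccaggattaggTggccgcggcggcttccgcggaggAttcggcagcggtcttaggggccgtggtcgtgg
Rps2-ps13, chrX:52898990-52899079, plus strand: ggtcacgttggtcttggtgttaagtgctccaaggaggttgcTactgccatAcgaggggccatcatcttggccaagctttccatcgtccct
Rps2, bases 403 to 492 of the coding sequence: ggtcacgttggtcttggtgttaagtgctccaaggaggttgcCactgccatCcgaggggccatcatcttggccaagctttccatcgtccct
Rpl34-ps1, chr6:71124696-71124785, plus strand: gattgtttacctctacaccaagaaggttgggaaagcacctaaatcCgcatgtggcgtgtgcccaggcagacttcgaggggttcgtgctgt
Rpl34, bases 87 to 176 of the coding sequence: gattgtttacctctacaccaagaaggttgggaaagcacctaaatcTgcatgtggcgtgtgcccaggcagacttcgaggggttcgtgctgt
Rpl3-ps1, chrX:13202583-13202672, plus strand: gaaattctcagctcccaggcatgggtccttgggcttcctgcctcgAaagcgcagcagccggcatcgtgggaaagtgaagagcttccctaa
Rpl3, bases 12 to 101 of the coding sequence: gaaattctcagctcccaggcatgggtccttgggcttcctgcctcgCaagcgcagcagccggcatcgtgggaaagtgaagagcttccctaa
Rps13-ps1, chr8:87048083-87048172, plus strand: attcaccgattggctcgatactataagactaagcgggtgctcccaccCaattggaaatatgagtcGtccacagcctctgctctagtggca
Rps13, bases 364 to 453 of the coding sequence: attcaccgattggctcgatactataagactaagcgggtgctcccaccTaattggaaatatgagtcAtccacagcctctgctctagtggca
Rpl15-ps2, chr9:72061222-72061311, plus strand: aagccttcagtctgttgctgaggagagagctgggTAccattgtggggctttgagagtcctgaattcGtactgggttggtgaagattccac
Rpl15, bases 288 to 377 of the coding sequence: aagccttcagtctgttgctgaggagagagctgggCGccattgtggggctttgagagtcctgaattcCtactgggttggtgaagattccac

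Counted from 1 at the first base of the parent's coding sequence, with the parent's base first, Rps2-ps13 carried T60A, A84G, T204C, G300A, C444T, C453A and T756C over 879 bases. Rpl34-ps1 carried T132C and C318G, Rpl3-ps1 C57A and T786C, and Rps13-ps1 T411C and A429G. All 13 substitutions of these 4 copies stood at the third position of a codon and were synonymous, and no copy had a gap. In the other 22 processed members that could be aligned to a parent coding sequence, Rpl15-ps2 among them, 84 of 190 substitutions (44.2%) were synonymous and 7 copies had gaps. Mdm4-ps alone gave 65 of the 190, 16 of them synonymous. Of the 17 copies in that set with any substitution, 2 had only synonymous ones. The contrast was noticed after the levels were seen. It also depends on leaving Rpl15-ps2 out of the 4, so it is a description. Rpl15-ps2 had 4 synonymous substitutions among 8. Rps2-ps10, a further copy of Rps2, had 5 substitutions, and all 5 were among the 7 of Rps2-ps13.

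An on-off member was defined as one with at most 3 reads in its lowest liver and at least 30 normalised reads in its highest. This held for 12 of the 53 members (22.6%), against 0.946% of the 13845 entries with a mean of at least 10. It held for 22 of 220 annotated pseudogenes with other names (10.0%) and for 0.574% of protein-coding genes. Low means alone give more such entries: between 10 and 50 the share was 28.6% of 35 members and 4.5% of all entries, and at 50 or more it was 11.1% of 18 members, 8.43% of 83 pseudogenes with other names and 0.184% of all entries. The ratio of the highest to the lowest liver, with a liver under 3 reads set to 3, had a median of 3.59 over the members and 1.66 over all entries. For the annotated pseudogenes with other names the median was 3.39, and at means between 10 and 50 it was 3.74 for members and 3.06 for all entries. The ratio was at least 10 in 16 members (30.2%), in 15.5% of the other pseudogenes and in 2.17% of all entries. Because these figures come from the values that define the pattern, no test is attached to them. The mean of at least 10 is drawn from the same values. For example, Rps13-ps1 and Rpl15-ps2 reached it only through 1 liver each, with 0 to 2.40 and 0 to 3.67 in the other 8. Both are counted in the 22.6%. By liver, HP1a_KO replicate 1, the shallowest library, held 9 of the 12 on-off members at 3 reads or fewer, and HP1ag_KO replicate 1 held 8. HP1ag_KO replicate 2 held only 1. WT replicate 1 held 4, WT replicates 2 and 3 held 2 each, and livers of 1 genotype differed among themselves.

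**Figure D1:**
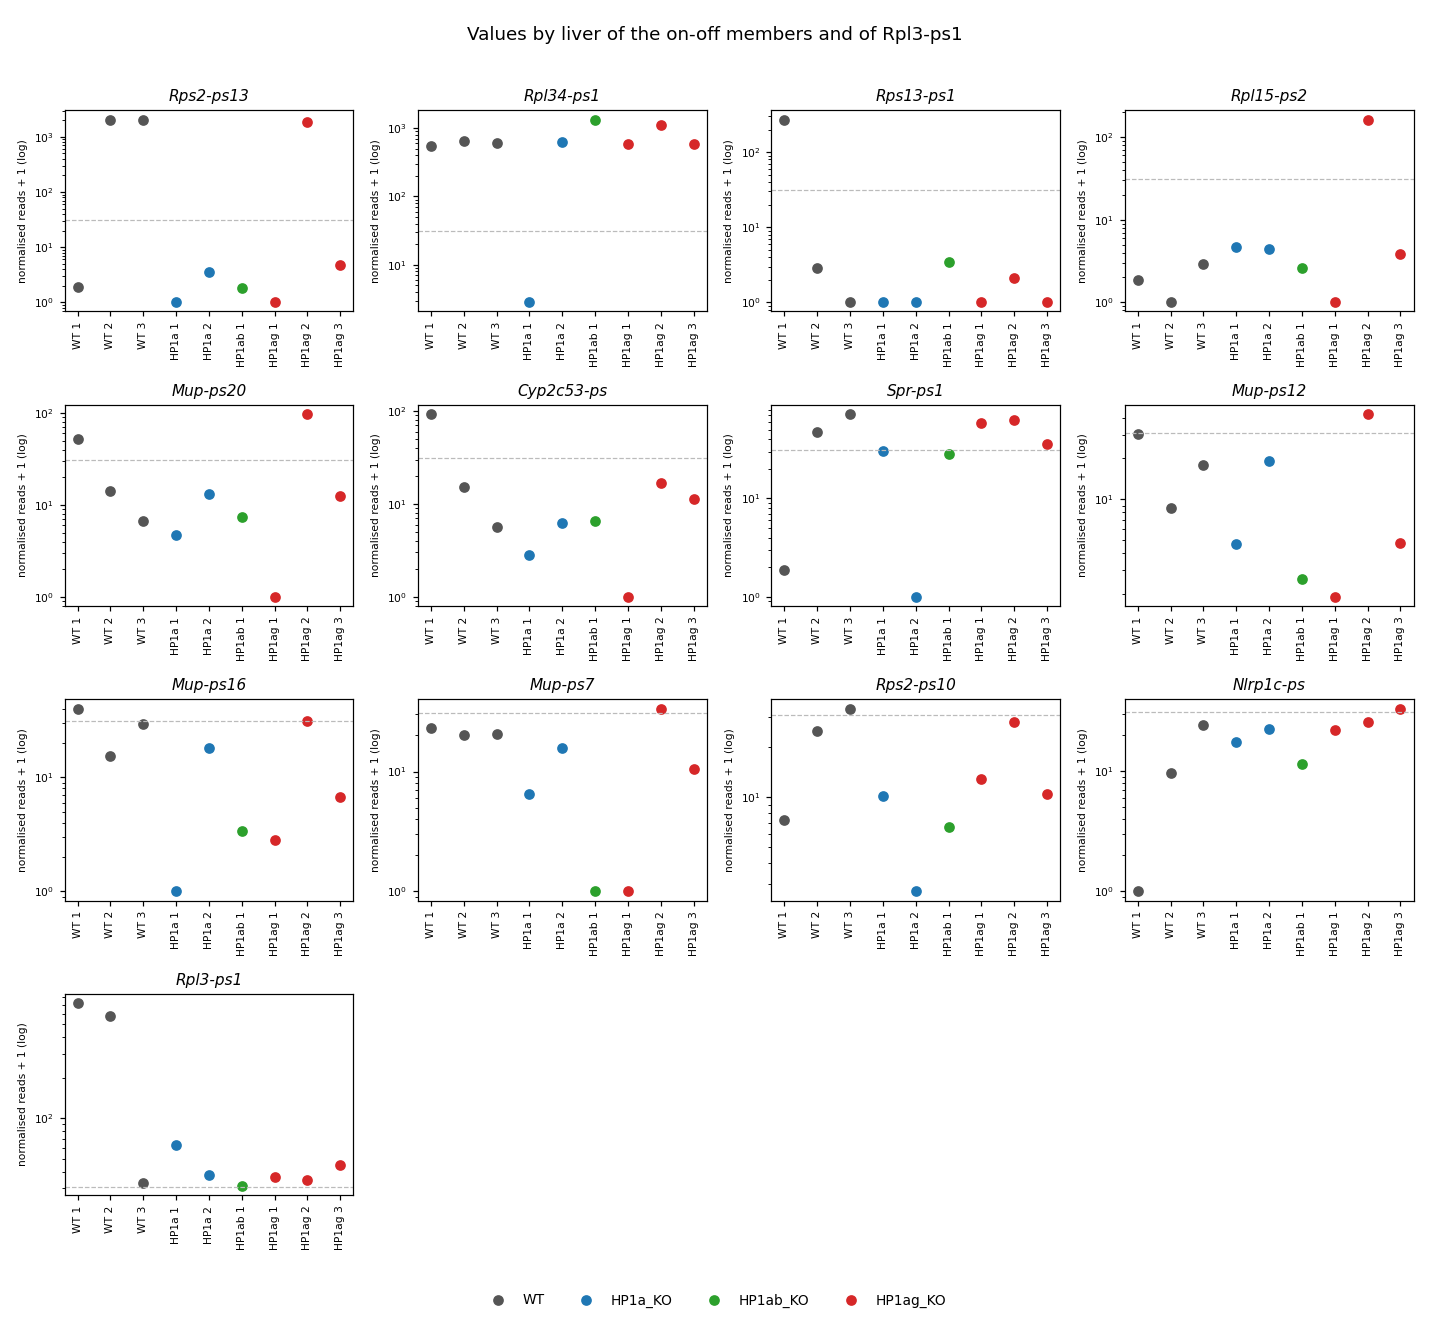
Normalised reads plus 1 on log axes whose ranges differ between panels, for the 12 on-off members and Rpl3-ps1 in each of the 9 livers, coloured by group; the dashed line marks 30. Rps2-ps13 lies near 2000 in WT 2, WT 3 and HP1ag 2 and under 4 in the other 6 livers, while Rpl34-ps1 is low in HP1a 1 alone.

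Rps2-ps13 (ENSMUSG00000081684, chrX:52898588-52899469) is a copy of Rps2, whose protein belongs to the small ribosomal subunit. It had 0.889, 2066 and 2000 normalised reads in the WT livers, 0 and 2.58 in HP1a_KO, 0.799 in HP1ab_KO, and 0, 1825 and 3.79 in HP1ag_KO. WT replicates 2 and 3 and HP1ag_KO replicate 2 were high and the other 6 livers were almost empty, so the level did not follow the genotype groups. Rps2 itself (chromosome 17) had 6618, 6301 and 6028 in the 3 livers where the copy was high, and 9564 to 12008 in the other 6. The 2 sets did not overlap for the parent, and it was lower where the copy was high. The sum of copy and parent still lay lower in those 3 livers, at 7853 to 8683 against 9565 to 12008. The copy made up 23.8%, 24.1% and 23.2% of that sum in WT replicate 2, WT replicate 3 and HP1ag_KO replicate 2, and at most 0.0365% elsewhere.

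Rps2-ps10, the second copy of Rps2 among the on-off members, had 6.23, 23.8 and 32.8 in WT, 9.17 and 1.72 in HP1a_KO, 5.59 in HP1ab_KO, and 11.8, 26.9 and 9.46 in HP1ag_KO. The 3 highest livers were the same 3 as for Rps2-ps13. Of the 50-base windows of Rps2-ps10, only 3.71% were found in no other annotated transcript. Whether reads of Rps2-ps13 were counted for Rps2-ps10 was not tested. Of the 28 entries in the table that matched the Rps2 coding sequence at 90% identity or more over at least 50% of its length, 4 had a mean of at least 10, and these 2 alone were on-off. The nearest expressed genes to Rps2-ps13 were Phf6, at 228 to 377, and Hprt, at 1024 to 1492. Neither showed 2 levels, as their highest and lowest livers differed 1.66-fold and 1.46-fold.

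Rpl34-ps1 (ENSMUSG00000068396, chr6:71124610-71124963) copies the gene of a large-subunit ribosomal protein. Its values were 536, 642 and 596 in WT, 1.83 and 623 in HP1a_KO, 1331 in HP1ab_KO, and 574, 1106 and 590 in HP1ag_KO. The livers fell on 3 levels: 1 read in HP1a_KO replicate 1, 536 to 642 in 6 livers, and 1106 to 1331 in HP1ag_KO replicate 2 and HP1ab_KO. Rpl34 (chromosome 3) ran the other way, with 2734 in HP1a_KO replicate 1, 1463 to 1802 in the 6 middle livers, and 810 and 654 in the other 2. The copy's share of the sum was 0.0671% in HP1a_KO replicate 1, 25.8 to 26.8% in the 6 middle livers, 62.2% in HP1ab_KO and 62.8% in HP1ag_KO replicate 2. The sum varied 1.55-fold over the livers, from 1760 to 2736, where Rpl34 alone varied 4.18-fold. All WT livers stood on the middle level, while the HP1a_KO livers were split between low and middle and the HP1ag_KO livers between middle and high. Of its 50-base windows, 0% were found in no other annotated transcript, and 71.5% were found in Rpl34. Its neighbour Thnsl2, 3.2 kb away, varied 1.46-fold.

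Rps13-ps1 (ENSMUSG00000066362, chr8:87047689-87048226) was found in 1 liver. It had 271 normalised reads in WT replicate 1 and 0 to 2.40 in the other 8. Rps13, which encodes a small-subunit protein, had 1599 in WT replicate 1 and 2326 to 2699 in the others. WT replicate 1 was thus the only liver with the copy and the one with the lowest parent, and the sum there, 1870, also lay below the 2327 to 2699 of the other livers.

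Rpl15-ps2 (ENSMUSG00000098915, chr9:72060937-72061549) was likewise found in 1 liver, with 163 in HP1ag_KO replicate 2 and 0 to 3.67 in the other 8. Rpl15, a large-subunit gene, was at 2943 there and at 2960 to 3363 elsewhere. Gm10020, another annotated copy of Rpl15 on chromosome 15, had 88.6 in the same liver and 1.83 to 7.57 in the others. Rpl15-ps2 lies within Tcf12 on the opposite strand, and Tcf12 varied 1.19-fold.

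Rpl3-ps1 (ENSMUSG00000084349, chrX:13202571-13203780) did not meet the definition, because every liver had at least 30 reads, but it too showed 2 levels. It had 720, 580 and 31.8 in WT, 62.4 and 37.0 in HP1a_KO, 30.4 in HP1ab_KO, and 35.5, 33.6 and 43.5 in HP1ag_KO. WT replicates 1 and 2 stood far above the other 7 livers, and WT replicate 3 lay among the mutants. Rpl3, a large-subunit gene, had 4548 in WT replicate 1, 7797 in WT replicate 2 and 6931 to 8900 in the other 7 livers. In WT replicate 2 the parent therefore lay within the range of the livers without the high copy. The copy made up 13.7% of the sum in WT replicate 1, 6.92% in WT replicate 2 and 0.398 to 0.696% elsewhere. Its neighbours Usp9x and Ddx3x varied 1.24-fold and 1.33-fold.

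**Figure D2:**
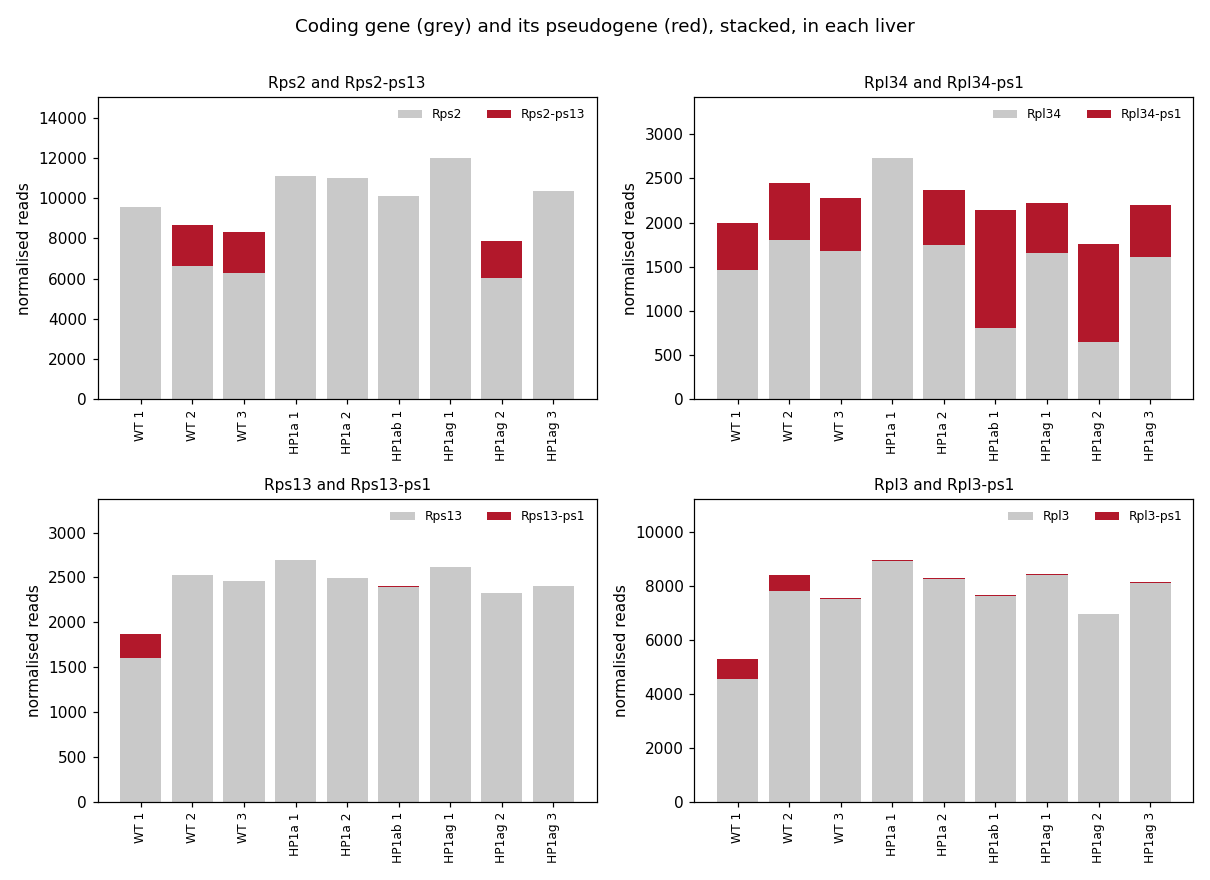
Normalised reads of 4 parent genes (grey) with the reads of their pseudogene stacked on top (red), from 0, in each of the 9 livers. Rpl34 is short where Rpl34-ps1 is tall, so that the stacked height runs from 1760 to 2736, while Rps2 and Rps13 stay lower in height where their copies are present.

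The other on-off members were unprocessed pseudogenes. Spr-ps1 (ENSMUSG00000068303) is named after Spr, the gene of sepiapterin reductase, an enzyme of tetrahydrobiopterin synthesis, and aligned to it over 11.5% of its length. It had 0.889, 46.7 and 71.2 in WT, 29.4 and 0 in HP1a_KO, 27.2 in HP1ab_KO, and 57.4, 61.7 and 35.0 in HP1ag_KO. It was almost absent in WT replicate 1 and HP1a_KO replicate 2 and present in the other 7 livers. Spr, 14.9 kb away, varied 1.29-fold, and 91.8% of the windows of Spr-ps1 occurred in no other transcript. Nlrp1c-ps, from a family of inflammasome sensors, had 0 in WT replicate 1 and 8.57 to 32.2 in the other 8 livers, while its neighbour Nlrp1b ran from 17.8 to 38.8. Cyp2c53-ps had 91.6 in WT replicate 1 and 0 to 15.7 elsewhere. It overlaps the cytochrome P450 gene Cyp2c29 on the same strand, and Cyp2c29 lay between 16676 and 31954.

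Major urinary proteins are pheromone carriers that the mouse liver secretes in large amounts. Of the 6 Mup pseudogenes, 4 were on-off, namely Mup-ps7, Mup-ps12, Mup-ps16 and Mup-ps20, and Mup-ps13 and Mup-ps19 were detected in every liver. Mup-ps19 varied 22.9-fold and only just missed the definition, with 3.65 in HP1ag_KO replicate 1, where 3 reads were worth 2.73. The summed level of the 6 was 359, 349 and 228 in WT, 134 and 226 in HP1a_KO, 229 in HP1ab_KO, and 44.7, 630 and 308 in HP1ag_KO. HP1ag_KO replicate 1 was lowest and HP1ag_KO replicate 2 highest, so 1 genotype held both ends. The 20 coding Mup genes summed to 634011, 338759 and 498091 in WT, 242527 and 311540 in HP1a_KO, 323912 in HP1ab_KO, and 99009, 483423 and 303344 in HP1ag_KO. HP1ag_KO replicate 1 was lowest there too. The pseudogenes' sum varied 14.1-fold and the coding sum 6.40-fold. Mup-ps20 had 50.7, 13.3 and 5.62 in WT, 3.67 and 12.0 in HP1a_KO, 6.39 in HP1ab_KO, and 0, 96.5 and 11.4 in HP1ag_KO. Mup20, 35.4 kb away, had 2678 in HP1ag_KO replicate 1 and 23952 to 97246 in the other 8 livers. The low values of HP1a_KO replicate 1 (0 to 3 reads in these 4 pseudogenes) come from the library with the fewest reads.

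**Figure D3:**
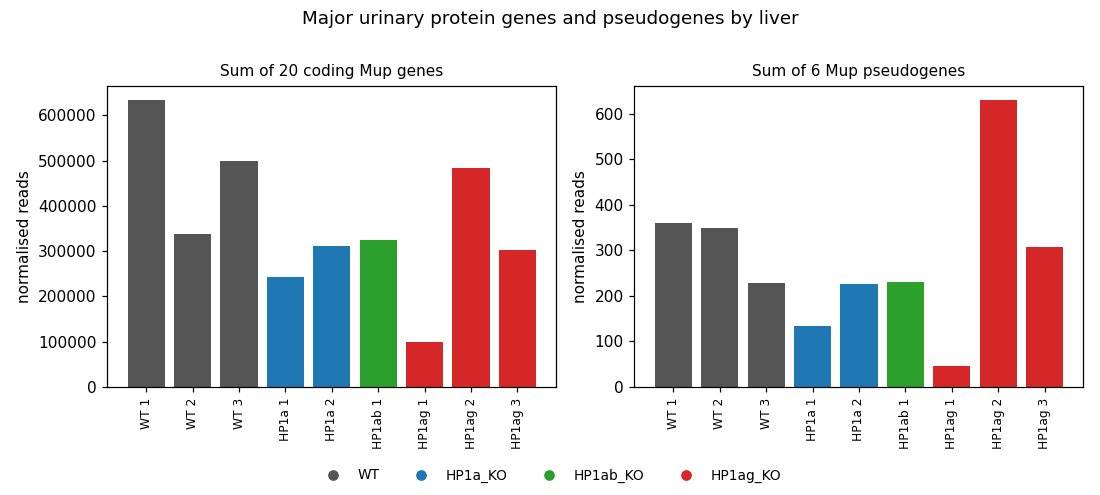
Summed normalised reads of 20 coding Mup genes (left) and of the 6 Mup pseudogenes (right) in each liver, bars from 0, coloured by group. HP1ag 1 is the lowest bar in both panels, and HP1ag 2 is the highest of the pseudogenes.

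How much sequence a member shares with other genes was read from 50-base windows of its transcript, searched on both strands in every annotated transcript. The median share found nowhere else was 11.1% for processed and 82.3% for unprocessed members. The 5 copies whose sequences are shown had shares between 0 and 15.8%. A low share did not always go with a wide spread. Rpl10a-ps1, Rpl31-ps8, Rpl28-ps1, Rps6-ps4, Tpt1-ps3 and Pgam1-ps2 were identical to their parent over the aligned length. They had means of 14.9 to 64.3 and varied 1.75-fold to 2.46-fold. Serpina4-ps1 and Spr-ps1 varied widely with few or no shared windows. The part of shared sequence in the spread was not tested. For 33 members the entry of the parent could be examined, and 32 of them varied more than the parent did, with medians of 2.53-fold and 1.38-fold. The exception was Cd63-ps, which varied 4.46-fold against 8.87-fold for Cd63. Levels were not matched in this comparison, as the members had a median of 0.752% of the parent's mean. Over all entries with means between 10 and 50, of any kind, the median ratio was 3.06. Among the 6 on-off members with a parent entry, the sum varied less than the parent in 6, and among the other 27 in 16. These 6 are not separate cases, as Rps2-ps13 and Rps2-ps10 share the parent Rps2. They were also chosen by values that enter the sum, so the count is a description. Some copies could change the sum only slightly: Rps2-ps10 had at most 32.8 where Rps2 had 6028 to 12008.

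**Figure D4:**
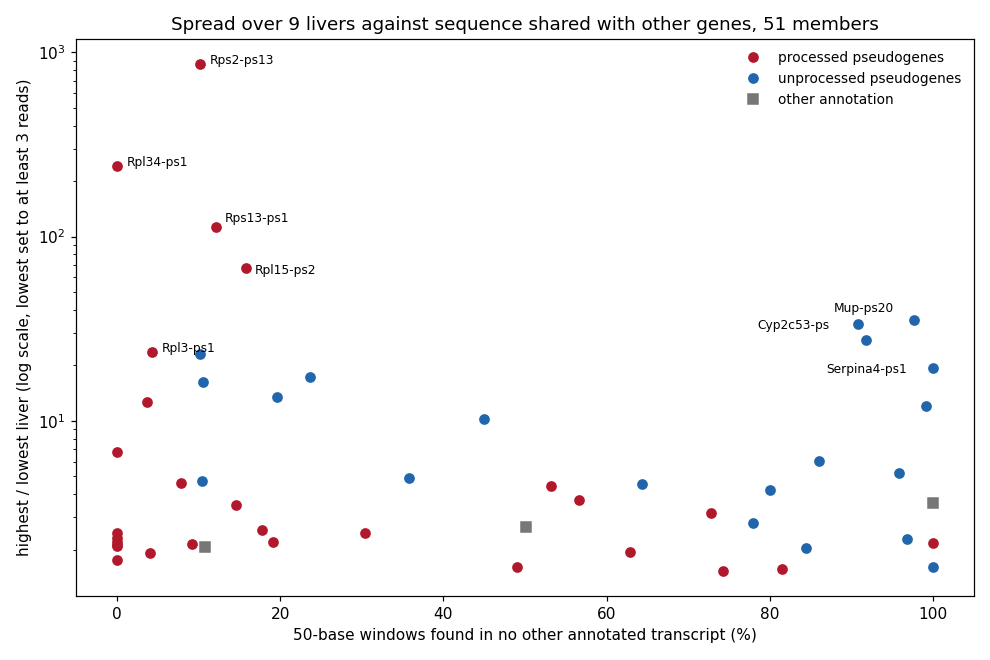
Ratio of the highest to the lowest liver (log axis, lowest liver set to at least 3 reads) against the percent of 50-base windows found in no other annotated transcript, for the 51 members with a transcript. The widest spreads are processed copies with under 20% such windows, and many copies with as few windows vary less than 3-fold.

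The 4 members with the highest means were unprocessed and had at least 343 reads in every liver. Serpina4-ps1, related to the serine protease inhibitors of the kallistatin group, had 8530.5, 2247 and 9414 in WT, 730.2 and 3724 in HP1a_KO, 3305 in HP1ab_KO, and 492, 9503 and 2505 in HP1ag_KO. High and low livers occurred in WT as well as HP1ag_KO, and the range was 19.3-fold. Cyp2d37-ps, of the Cyp2d family of drug-metabolising enzymes, had a mean of 1477 and varied 2.30-fold. Adh6-ps1, of the alcohol dehydrogenases, had a mean of 797 and varied 5.23-fold. Pisd-ps1, from the gene of the mitochondrial enzyme that makes phosphatidylethanolamine, had a mean of 791, above the 527 of Pisd itself. Mdm4-ps and Ppp4r1l-ps, with means of 204 and 219, varied 1.58-fold and 1.62-fold. Per kilobase of exon, Rpl34-ps1 had a mean level of 1883 normalised reads and Rpl34 one of 595, while Rps2-ps13 had 743 and Rps2 had 5044. The exon length of Rpl34 includes all its annotated transcripts, which lowers its figure.

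The comparisons with WT ask what the loss of HP1 proteins does to these transcripts. All of them use the same 3 WT livers. Of the 13845 entries tested with limma (log2 of the value plus 1, Benjamini-Hochberg adjustment over all of them), 0 passed an adjusted p of 0.05 in any comparison, so 0 of 53 members did. The edgeR quasi-likelihood test on whole reads gave 0 as well. DESeq2 gave 99 entries for HP1ag_KO (0.715%), 87 for HP1a_KO (0.628%), 11 for HP1ab_KO (0.0795%) and 46 for the 6 HP1a-null livers together (0.332%). Among members it gave 2, 0, 0 and 2 in that order, and for HP1a_KO it left 1632 entries without an adjusted p. At an unadjusted limma p under 0.05 the members numbered 9 of 53 (background 7.58%) for HP1ag_KO, 2 (10.1%) for HP1a_KO, 2 (3.70%) for HP1ab_KO and 2 (6.31%) for the HP1a-null livers.

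The members DESeq2 called were Znf41-ps and Rpl3-ps1. Znf41-ps (ENSMUSG00000084350, chr4:145825237-145829942), an unprocessed pseudogene of the zinc finger family, whose proteins bind DNA, had 14.2, 17.1 and 19.7 in WT. It had 36.7 and 20.6 in HP1a_KO, 48.7 in HP1ab_KO, and 59.2, 67.3 and 50.2 in HP1ag_KO. Every mutant liver lay above every WT liver, the closest being HP1a_KO replicate 2 at 20.6 and WT replicate 3 at 19.7. Of the 53 members, 1 showed this (background 1.4%), and 0 had every mutant liver below every WT liver (1.74%). The log2 difference from WT was 1.73 ± 0.28 (SE) for HP1ag_KO, with a limma adjusted p of 0.232 and a DESeq2 adjusted p of 0.00159. Over the 6 HP1a-null livers it was 1.34 ± 0.24, with a limma adjusted p of 0.451 and a DESeq2 adjusted p of 0.0276. The DESeq2 call for HP1ag_KO was lost without WT replicate 1 (adjusted p = 0.079) or HP1ag_KO replicate 2 (0.0633), with log2 fold changes of 1.685 and 1.697 against 1.8 with all livers. That for the HP1a-null livers was lost without any 1 of the WT or HP1ag_KO livers, with DESeq2 adjusted p-values of 0.139 to 0.261 and log2 fold changes of 1.266 to 1.505. Its transcript was 99.5% identical to Zfp991, and 10.4% of its windows were found nowhere else. Whether its reads were split between near-identical zinc finger genes was not tested.

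Rpl3-ps1 differed by -2.64 ± 1.03 on the log2 scale in HP1ag_KO (limma adjusted p = 0.619, DESeq2 adjusted p = 0.0414) and by -2.57 ± 0.89 in the HP1a-null livers (0.721 and 0.0160). The 3 WT values were 720, 580 and 31.8, so the difference rested on WT replicates 1 and 2. For HP1ag_KO the DESeq2 call was lost without any 1 of WT replicates 1 and 2 or the HP1ag_KO livers, with adjusted p-values of 0.157 to 0.52 and log2 fold changes of -3.67 to -3.017. For the HP1a-null livers it was lost without WT replicate 1 (DESeq2 adjusted p = 0.269), WT replicate 2 (0.2), HP1a_KO replicate 2 (0.0594), HP1ag_KO replicate 1 (0.0518) or HP1ag_KO replicate 3 (0.0527), with log2 fold changes of -3.507 to -2.941. Without WT replicate 3, limma called it in HP1ag_KO (adjusted p = 0.0153), HP1ab_KO (0.0489) and the HP1a-null livers (0.00791).

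In HP1ag_KO, 8 members (15.1%) had all 3 livers above all WT livers (background 6.46%) and 1 (1.89%) had all below (7.05%). Of the 220 annotated pseudogenes with other names, 30 lay above in this way and 3 below, so the tilt was not particular to the members. Among the higher members were Znf41-ps, Cyp21a2-ps, Vmn1r-ps128, Rps25-ps1, Pisd-ps1 and Pisd-ps2. Cyp21a2-ps, a copy of the steroid 21-hydroxylase gene, had 50.7, 32.4 and 59.0 in WT and 100.2, 148 and 63.4 in HP1ag_KO (log2 difference 1.08 ± 0.34, limma adjusted p = 0.584). It overlaps Tnxb on the other strand and was 97.4% identical to Cyp21a1 over 85.5% of its length, with 64.3% of windows found nowhere else. Cyp21a1 had 14.2, 7.62 and 32.8 in WT and 18.2, 48.2 and 18.0 in HP1ag_KO. Whether reads of these genes were assigned to Cyp21a2-ps was not tested. Vmn1r-ps128, from the vomeronasal receptors, had 8.89, 11.4 and 10.3 in WT against 20.96, 16.8 and 15.1 (0.73 ± 0.34, limma adjusted p = 0.665). Rps25-ps1 had 19.6, 28.6 and 38.4 against 47.4, 48.2 and 41.6 (0.69 ± 0.28, limma adjusted p = 0.629). Pisd-ps1 had 660, 714 and 718 against 788, 1292 and 1027 (0.54 ± 0.17, limma adjusted p = 0.569), whereas Pisd had 500 to 525 in WT and 523 to 570 in HP1ag_KO. The lower member was Eif4a-ps4, named for a translation initiation factor, with 59.6, 65.7 and 62.7 against 40.1, 31.4 and 51.1 (-0.63 ± 0.25, limma adjusted p = 0.619). None of these members passed limma or, apart from Znf41-ps, DESeq2.

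**Figure D5:**
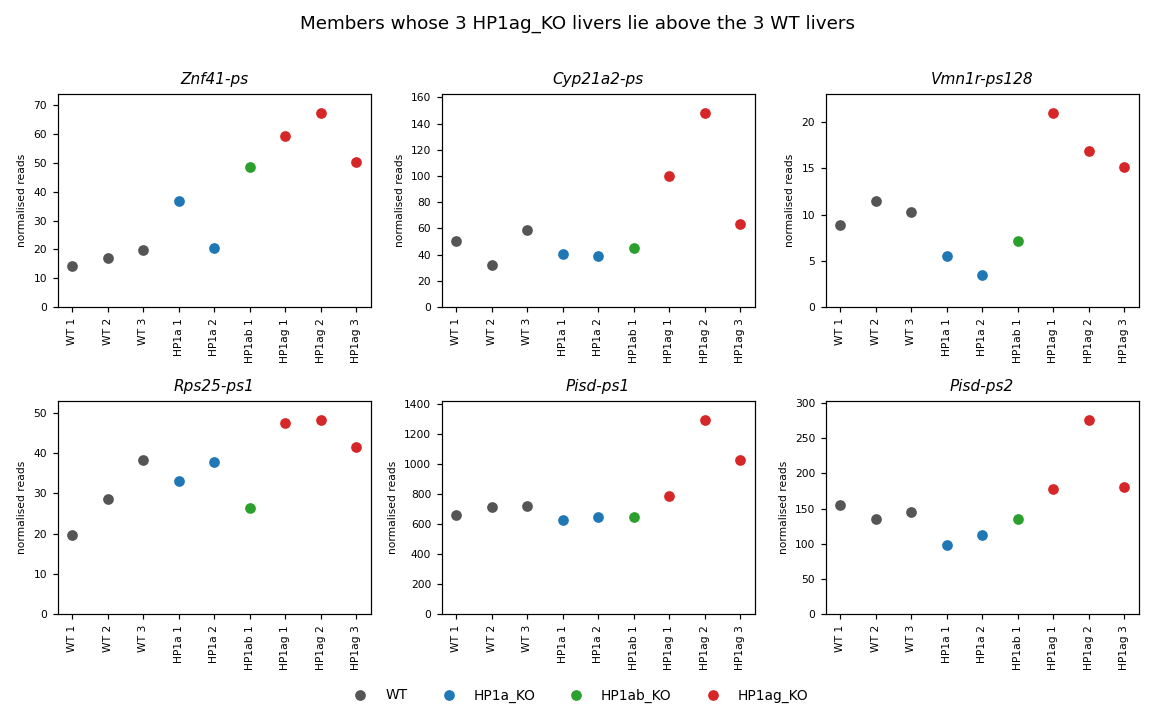
Normalised reads from 0 in each liver for 6 members whose 3 HP1ag_KO livers lie above the 3 WT livers, 1 point per liver, with separate scales. In Znf41-ps the HP1a_KO and HP1ab_KO livers also lie above WT, and in the other 5 at least 1 of these lies within or below the WT range.

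In HP1a_KO, both livers lay above all WT livers in 7 members (background 14.7%) and below in 9 (15.1%). The widest of the higher ones were Rpl15-ps2 (1.37 ± 1.83, with values of 3.67 and 3.44 against 0 to 1.87), Rps6-ps4, Znf41-ps (0.68 ± 0.31), Rpl9-ps7 (0.62 ± 0.33) and Rpl28-ps1 (0.51 ± 0.32). Rpl15-ps2 had 2 and 4 reads in HP1a_KO against 1, 0 and 2 in WT. HP1a_KO replicate 1 thus lay above WT replicate 3 only through the higher value of 1 read there. Rps6-ps4 had 34.7, 35.2 and 39.3 in WT and 66.1 and 54.2 in HP1a_KO (0.70 ± 0.23, limma adjusted p = 0.452). Rpl9-ps7 had 14.2, 14.3 and 20.6 against 31.2 and 20.6, the nearest livers differing by under 1 read. Of the lower ones, Mup-ps7 differed by -1.08 ± 1.26, Vmn1r-ps128 by -1.05 ± 0.38, Mup-ps19 by -0.92 ± 0.85, Eif4a-ps4 by -0.50 ± 0.27 and Pisd-ps2 by -0.45 ± 0.22, with limma adjusted p-values from 0.457 to 0.777. Pisd-ps1, Pisd-ps2 and Vmn1r-ps128 thus lay below WT in HP1a_KO and above it in HP1ag_KO, a difference between mutants that was not tested. The single HP1ab_KO liver lay above WT in 7 members (background 22.6%) and below in 16 (24.8%). The widest of the higher ones were Znf41-ps, Rpl34-ps1, Got2-ps1, Gpr137b-ps and Tpt1-ps3, with log2 differences from 0.25 to 1.48. The widest of the lower ones were Rps2-ps13, Mup-ps7, Mup-ps16, Rpl3-ps1 and Mup-ps12, with log2 differences from -6.79 to -2.69, and 1 liver gives them no replicate check. Rps2-ps13 had 1 read there and 1 read in WT replicate 1, so its difference rested on WT replicates 2 and 3.

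Of the 53 members, 24 were higher and 29 lower in HP1a_KO, 20 higher and 33 lower in HP1ab_KO, and 23 higher and 30 lower in the HP1a-null livers. In HP1ag_KO 25 were higher and 28 lower, with a median log2 difference of -0.04 against -0.01 over all entries. The medians were -0.18 in HP1a_KO, -0.11 in HP1ab_KO and -0.06 in the HP1a-null livers, against medians between -0.01 and 0.00 over all entries. Between replicates, the members' median had an SD of 0.12. In HP1a_KO the 28 processed members had a median of 0.06, with 16 higher, and the 20 unprocessed ones -0.48, with 15 lower. The unprocessed ones include the 6 Mup pseudogenes, all lower in HP1a_KO. The size of the differences, in either direction, had a median of 0.46 in HP1ag_KO against 0.15 over all entries and 0.39 over the pseudogenes with other names. In HP1a_KO the medians were 0.45, 0.18 and 0.37 in the same order. The 21 ribosomal protein members divided into 11 higher and 10 lower in HP1ag_KO, with a median of 0.00. Their size of difference had a median of 0.22. The 6 Mup pseudogenes had medians of -1.38 in HP1ag_KO and -0.999 in HP1a_KO, all 6 on the lower side in both, and of -1.94 in HP1ab_KO, with 5 of 6 lower, and limma called 0 of them. The HP1ag_KO sums of 44.7, 630 and 308 spanned those of WT on both sides, and the lowest came from the liver in which the coding Mup genes were lowest too. The 29 parent genes had a median of 0.06 in HP1ag_KO, 19 of them higher, and of 0.17 in HP1a_KO, 24 of them higher, and limma called 0. The 220 annotated pseudogenes with other names had a median of 0.20 in HP1ag_KO, where 146 were higher, and of -0.15 in HP1a_KO, where 81 were. Summed markers of neutrophils (4 genes) were 28.5 to 43.8 in WT, 168 to 207 in HP1a_KO, 113 in HP1ab_KO and 20.2 to 114 in HP1ag_KO. Those of Kupffer cells, the macrophages of the liver (4 of 5 genes in the table), were 7187 to 9105 in WT, 10641 to 13027 in HP1a_KO, 12573 in HP1ab_KO and 8404 to 12025 in HP1ag_KO. Stellate cell markers (5 genes) summed to 10146 to 15430 in WT, 16206 to 17377 in HP1a_KO, 16555 in HP1ab_KO and 13608 to 15081 in HP1ag_KO. Endothelial markers summed to 7886 to 8837 in WT and 7863 to 8744 in HP1a_KO. The sums for hepatocytes, cholangiocytes, erythroid cells and lymphocytes also overlapped between WT and HP1a_KO. The part of any of these cell types in the differences was not tested. In bulk RNA, fewer cells of a type and less RNA per cell cannot be told apart.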

How the data were processed

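Strand-specific libraries of ribosome-depleted liver RNA were sequenced, per the labels' protocols. The deposited values are a normalised signal, whole reads that the authors had scaled with 1 factor for each library, as the steps between low values show. DESeq2 1.0.19, HTSeq 0.5.4p3, TopHat2 2.0.10, CASAVA 1.8.2 and Bowtie2 2.1.0 are listed, with build mm10, in the submitters' processing notes. Which annotation and strand setting were used, and how reads with several alignments were treated, is not stated there, so reads of a copy and its parent, or of overlapping genes, may have been assigned to either.

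Whole reads were recovered for 100% of values (tolerance 0.1 read), with size factors from 0.545 to 1.25. Replicates differed by more than counting noise. Members, lists, and tests were chosen with earlier results of these data known. Members named are the on-off ones, the 8 with the highest mean, those called by any tool and up to 5 per direction and comparison outside the WT range; some results are not reported here, and others were added after their values were seen. Their parents and expressed neighbours within 100 kb are named too, and Rpl3-ps1 as a 2-level member after its values were seen. limma 3.58.1 (R 4.3.3, mean trend, pseudocount 1, mean of at least 10) was fitted to all 4 groups at once, so the single HP1ab_KO liver was assumed to vary like the others. Differences on this scale understate those of low entries. edgeR 4.0.16 and DESeq2 1.42.0 were run on the recovered reads. The tests were tried on simulated counts. Transcripts were aligned with blastn 2.17.0. Windows were searched in GENCODE M21 transcripts, since a genome sequence was not used here. Copies in unannotated sequence are therefore missed. Python 3.11.15, numpy 2.4.6, pandas 2.3.3 and matplotlib 3.10.9 were used. Limits at 0 reads are taken as 3 reads and cover counting error only.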

Additional observations from a re-analysis of the deposited data

How the results depend on the processing

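Across the other settings tried for counts and medians, 189 values stayed within 1.5 times the count or 1 SD of the median reported, and 21 moved. The median member difference for HP1ag_KO, -0.04, lay so near 0 that its sign changed under equal totals (0.01), edgeR (0.0096), DESeq2 (0.0023), without WT replicate 3 (0.05) and without HP1ag_KO replicate 3 (0.0039). DESeq2 on whole reads called 99 entries for HP1ag_KO, 87 for HP1a_KO, 11 for HP1ab_KO and 46 for the HP1a-null livers, with 2 members in the first and 2 in the last, where limma and edgeR called 0. With a pseudocount of 5 limma called 1 entry for HP1a_KO, and with no filter on low values it called 54 for HP1ab_KO. The median member difference for HP1a_KO was -0.34 over the 18 members with a mean of at least 50. On-off members numbered 4 when the highest liver had to reach 100 normalised reads, and the naming rule gave 32 members at a mean of at least 20. The cause of these shifts was not tested.

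Leaving out 1 liver at a time, limma called 0 to 5 entries for HP1a_KO, 0 to 2 for HP1ab_KO, 0 to 2 for HP1ag_KO and 0 to 1 for the HP1a-null livers, and 0 to 1 members in each. The 1 member was Rpl34-ps1 for HP1a_KO without HP1a_KO replicate 2 (log2 difference -7.70, limma adjusted p = 0.00215), where the group is 1 liver, the shallowest, with 1 read and a spread taken from the other groups, and Rpl3-ps1 in the other comparisons without WT replicate 3. Median member differences ran from -0.23 to -0.07 for HP1a_KO, -0.28 to -0.089 for HP1ab_KO, -0.09 to 0.05 for HP1ag_KO and -0.15 to -0.01 for the HP1a-null livers. The rule gave 51 to 55 members, and 9 to 12 were on-off. Leaving livers out under DESeq2 was added after seeing the data. No paired analysis was possible because the replicate numbers used here follow the order of deposit and only name the livers. The labels give animal numbers, some of them consecutive between WT and HP1ag_KO, with no word on litters. Both HP1a_KO animals have consecutive numbers as well. In HP1a_KO replicate 1, the shallowest library, 3 reads were worth 5.50 normalised reads, so an off state there is less firmly bounded than elsewhere.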

Other observations

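Among the 220 annotated pseudogenes with other names and a mean of at least 10, 22 were on-off by the same definition, and some were present in the same livers as a member. A liver counted as on when it held at least 10% of the entry's highest value. Gm9825, Gm14292 and Gm15487 were on in WT replicates 2 and 3 and HP1ag_KO replicate 2, the livers with Rps2-ps13. Gm9825 had 118, 110.5 and 95.3 normalised reads there and 0 to 2.67 in the other 6, and Gm14292 had 36.2, 46.8 and 40.4 there and 0 elsewhere. These 3 lie on chromosomes 6, 2 and 6, and Rps2-ps13 on chromosome X. Gm8730 (chromosome 8, like Rps13-ps1) had 1310.1 in WT replicate 1, the liver with Rps13-ps1, and 1.83 to 7.49 in the other 8. Gm15387, on chromosome 15, was on in the same liver alone, with 74.7 against 1.72 to 5.62 in the others.

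Other sets of livers recurred outside the members. Rps3a3, a processed copy of a small-subunit ribosomal protein gene, had 1066, 1201, 2354 and 1278 in WT replicate 1, HP1ab_KO, and HP1ag_KO replicates 2 and 3, and 1.72 to 4.68 in the other 5 livers. Cd1d2, a polymorphic pseudogene of the lipid-presenting CD1 family, was on in the same 4 livers, with 225, 222, 518 and 246, and had 0 to 3.81 elsewhere. In both, HP1ag_KO replicate 2 was the highest. Which strain's alleles each animal carried at these places is not given in the labels and was not tested.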
